A study of Homo sapiens with 6 samples.

Results

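Neurexins, neuroligins and leucine-rich repeat transmembrane (LRRTM) proteins join both sides of a synapse, and their transcripts were followed here in neuroblastoma cells treated with ELF4 siRNA. The genes were chosen by name, with earlier results of these data known. The 7 symbols were NRXN2 and NRXN3 (neurexins), NLGN1, NLGN2 and NLGN3 (neuroligins), and LRRTM2 and LRRTM4. A row bearing exactly the symbol was present for 6 of the 7, out of 26906 rows in all. NRXN3 had no row in the table and was not analysed here. The cells were BE-(2)-C, an established human neuroblastoma line with an amplified MYCN gene, which received ELF4 siRNA (3 libraries) or control siRNA (3 libraries) and were sampled after 48 hours. All 6 libraries come from this 1 line, and both groups were treated with an siRNA. The series title ties ELF4, an ETS-family transcription factor, to the microRNA miR-124 and to the undifferentiated state, and the comparison here asks whether synaptic adhesion genes differed after ELF4 siRNA.

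Neurexins sit mainly on the presynaptic membrane. Neuroligins and LRRTM proteins sit on the postsynaptic membrane and bind the neurexin ectodomain across the cleft, and inside the cell they recruit scaffolds that hold neurotransmitter receptors. LRRTM2 and NLGN1 are known from excitatory synapses, NLGN2 from inhibitory ones, and LRRTM4 also binds heparan sulphate proteoglycans such as glypicans.

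The values are normalised read counts deposited by the authors, and each could be turned back into whole reads (100% of values, within 0.001 of a whole number). The recovered reads, summed over all rows, came to 23148635 to 38097986 per library. ELF4 itself had 5.51, 5.61 and 3.10 normalised counts in the ELF4 siRNA libraries, against 42.4, 38.8 and 46.8 in the control libraries, which is 11.1% of the control mean (log2 fold change -2.96, limma adjusted p = 5.38e-07). All 10 sympathoadrenal markers had at least 10 counts in at least 1 library. That bar does not tell cell types apart, since 20339 of 26906 rows reached 10 counts in at least 3 libraries. The summed level of the 10 sympathoadrenal markers was 240437 to 260140 after ELF4 siRNA and 207735 to 220005 in control cells. The summed level of 5 fibroblast markers was 2705 to 3012 after ELF4 siRNA and 1782 to 1831 in control cells, that of 5 Schwann and glial markers 232 to 243 after ELF4 siRNA and 200 to 219 in control cells, and that of the 3 blood and endothelial markers with a row 34.1 to 48.3 after ELF4 siRNA and 51.4 to 63.1 in control cells. SOX10, COL1A2 and CDH5 stayed under 10 counts in every library. The part of these markers in the results below was not tested.

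Among the 6 genes with a row, LRRTM2 rose 1.91 times after ELF4 siRNA and NRXN2 fell to 0.825 of control, whereas NLGN2 did not pass the test. NLGN1, NLGN3 and LRRTM4 were barely detected, with 2 to 21 reads in each library. To compare levels between genes, normalised counts were divided by the kilobases of exon annotated in GENCODE 29, which is on another genome build than the hg19 build named in the submitters' processing notes, so the per-length levels are approximate. Averaged over the 6 libraries, the level was 147 normalised counts per kilobase for LRRTM2, 16.5 for NRXN2, 3.54 for NLGN3 and 1.64 for LRRTM4. NLGN2 averaged 91.5 ± 3.87 counts per kilobase after ELF4 siRNA and 98.5 ± 4.65 in control cells (SD, n = 3 each). NLGN1 had the lowest level, at 0.204 to 0.332 after ELF4 siRNA and 0.650 to 0.901 in control cells. Among 14180 protein-coding rows with a length, these levels lay at percentile 59.9 for LRRTM2, 50.5 for NLGN2, 27.9 for NRXN2, 15.1 for NLGN3, 8.18 for LRRTM4 and 1.43 for NLGN1. No row held fewer than 11 reads over the 6 libraries, so these percentiles leave out genes below that total.

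How far neighbours in this order stood apart depended on the group. After ELF4 siRNA, LRRTM2 (193 ± 9.35 counts per kilobase, SD, n = 3) was above NLGN2 in every library. In control cells LRRTM2 (101 ± 7.15) and NLGN2 overlapped. NRXN2 lay below both in every library and above the remaining 3 genes. NLGN3 was above LRRTM4 in every ELF4 siRNA library, but they were not separated in the control libraries, where NLGN3 had 1.95 to 4.56 counts per kilobase and LRRTM4 had 0.422 to 2.44. NLGN1 was below LRRTM4 in all 3 ELF4 siRNA libraries, while in control cells it fell within the range of LRRTM4.

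**Figure D1:**
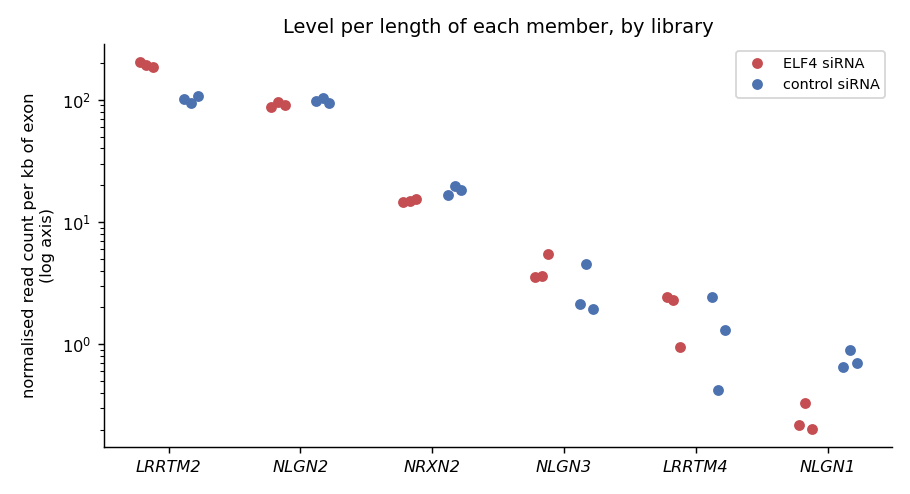
Normalised read count per kilobase of exon (log axis) for each gene, with 1 point per library and ELF4 siRNA left of control siRNA. LRRTM2 stands above NLGN2 after ELF4 siRNA and level with it in control cells, and NLGN3, LRRTM4 and NLGN1 stay under 6 counts per kilobase in every library.

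The presynaptic side was represented by NRXN2, which encodes a neurexin made in long alpha and shorter beta forms. NRXN2 (chromosome 11) had 153, 157 and 164 normalised counts after ELF4 siRNA, against 175, 207 and 192 in control cells. The lowest control library was above the highest ELF4 siRNA library, so the groups did not overlap, which held for 53.6% of all tested rows. The mean was 158 ± 5.25 after ELF4 siRNA and 191 ± 15.8 in control cells (SD, n = 3 each), or 82.5% of control. The log2 fold change was thus negative, at -0.27 (SE 0.09, 95% interval -0.46 to -0.08, limma adjusted p = 0.0215), and 40.8% of all tested rows moved further. The call was lost with upper-quartile scaling (limma adjusted p = 0.0765), with DESeq2 (adjusted p = 0.123) and in limma without ELF4 siRNA replicate 1 (adjusted p = 0.0654), control replicate 2 (adjusted p = 0.0835) or control replicate 3 (adjusted p = 0.0607).

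On the postsynaptic side, LRRTM2 showed the largest change among the tested members. LRRTM2 (chromosome 5) had 1235, 1177 and 1121 normalised counts after ELF4 siRNA, against 622, 569 and 655 in control cells. Every ELF4 siRNA library was above every control library by a wide margin. The mean was 1178 ± 57.0 after ELF4 siRNA and 615 ± 43.6 in control cells, a ratio of 1.91. LRRTM2 rose by 0.94 on the log2 scale (SE 0.06, 95% interval 0.80 to 1.07, limma adjusted p = 4.95e-08), a change exceeded in size by 3.39% of tested rows. The two-sided exact permutation p was 0.1 for LRRTM2, as for NRXN2 and NLGN1, and no smaller value can arise with 3 libraries in each group. The counts rest on 1049 to 1121 reads per ELF4 siRNA library and on 498 to 925 reads per control library. In a bulk sample, more cells with the transcript and more transcript per cell cannot be told apart.

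LRRTM2 lies inside CTNNA1, the gene of the adhesion protein alpha-E-catenin, on the opposite strand. In GENCODE 29, 7.30% of the LRRTM2 exon sequence is shared with CTNNA1 exons, and since no strand setting is stated, reads of that stretch cannot be assigned by strand. CTNNA1 had 3329, 3280 and 3615 counts after ELF4 siRNA, against 4047, 3932 and 4019 in control cells. The host gene thus fell (log2 fold change -0.23, limma adjusted p = 0.000718) where LRRTM2 rose. CTNNA2, the neuronal alpha-catenin and host of LRRTM1, rose (2492 ± 84.9 after ELF4 siRNA, 1899 ± 78.2 in control cells, log2 fold change 0.39, limma adjusted p = 1.18e-05). CTNNA3 was not analysed here.

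Because ELF4 is a DNA-binding ETS factor, the bases upstream of LRRTM2, the member with the largest change among those tested, are shown beside those of NLGN2, which had nearly the same per-length level in control cells. Both are the 250 bases before the annotated start in RefSeq (GRCh38.p14), 5′ to 3′ on the gene's strand, and capitals mark the ETS core letters GGAA or, for the other strand, TTCC. The LRRTM2 stretch is chr5:138875336-138875585 on the minus strand and the NLGN2 stretch is chr17:7407595-7407844 on the plus strand.
LRRTM2: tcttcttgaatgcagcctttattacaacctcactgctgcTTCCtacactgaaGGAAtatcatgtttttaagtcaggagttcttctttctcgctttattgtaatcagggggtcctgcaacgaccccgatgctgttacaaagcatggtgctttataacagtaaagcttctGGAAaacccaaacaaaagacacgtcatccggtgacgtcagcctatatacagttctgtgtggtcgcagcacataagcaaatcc
NLGN2: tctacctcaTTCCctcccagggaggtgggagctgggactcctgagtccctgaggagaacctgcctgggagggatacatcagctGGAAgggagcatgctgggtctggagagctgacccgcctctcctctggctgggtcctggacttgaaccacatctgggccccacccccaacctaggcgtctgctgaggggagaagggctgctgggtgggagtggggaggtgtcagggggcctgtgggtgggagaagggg
The core occurred 3 times upstream of LRRTM2 and 2 times upstream of NLGN2. Of 35116 promoter windows of the same length, 92.7% held at least 1, and the median was 3 matches, the number found for LRRTM2. The window of NLGN3, which did not pass the test, held 4. The longer ETS letters CCGGAAG, searched on both strands and containing the core, occurred in 8.52% of the windows and in 0 of the 8 windows listed for the 5 genes with an entry, which were NRXN3, NLGN1, NLGN2, NLGN3 and LRRTM2. These matches describe letters in the windows and do not show binding.

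Of the 3 neuroligins followed, NLGN2 was the only one with more than 21 reads in any library. NLGN2, the neuroligin of inhibitory synapses (chromosome 17), had 487, 530 and 507 normalised counts after ELF4 siRNA, against 538, 576 and 526 in control cells. The groups overlapped, as ELF4 siRNA replicate 2 was above control replicate 3. The mean was 508 ± 21.5 after ELF4 siRNA and 547 ± 25.8 in control cells. The log2 difference of -0.11 (SE 0.06, limma adjusted p = 0.184) did not pass, and its 95% interval ran from 0.848 to 1.02 of the control level.

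NLGN3, found at excitatory and inhibitory synapses (chromosome X), had 14.3, 14.6 and 21.7 normalised counts after ELF4 siRNA, against 8.48, 18.3 and 7.79 in control cells. Control replicate 2 lay within the ELF4 siRNA range and the other control libraries below it. These values rest on 13, 13 and 21 reads after ELF4 siRNA and on 9, 16 and 11 reads in control cells. The log2 difference was 0.59 (SE 0.32) and did not pass (limma adjusted p = 0.149), with an interval from 0.938 to 2.40 of the control level. It passed at 0.95 without control replicate 2 (limma adjusted p = 0.0173), so 1 library decides the call.

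NLGN1, the neuroligin of excitatory synapses (chromosome 3), had 2.20, 3.37 and 2.07 normalised counts after ELF4 siRNA, against 6.60, 9.14 and 7.08 in control cells. The groups did not overlap, but the values rest on 7 reads in all after ELF4 siRNA and on 25 in control cells. The mean was 2.55 ± 0.714 after ELF4 siRNA and 7.61 ± 1.35 in control cells. NLGN1 was below the limit for testing, a count of at least 10 in at least 3 libraries. Without that limit it fell, with a log2 fold change of -1.29 in limma (adjusted p = 0.0130) and of -1.52 in edgeR (adjusted p = 0.0206), where limma called 34% and edgeR 34.2% of all 26906 rows.

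LRRTM4 (chromosome 2) had 13.2, 12.3 and 5.17 normalised counts after ELF4 siRNA, against 13.2, 2.28 and 7.08 in control cells. Its groups overlapped across nearly their whole range. The log2 difference was 0.55 (SE 0.49) and did not pass (limma adjusted p = 0.391). The interval from 0.708 to 3.01 of the control level is wide, as it rests on 28 reads after ELF4 siRNA and 26 in control cells. The sign turned without control replicate 2 (-0.023).

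**Figure D2:**
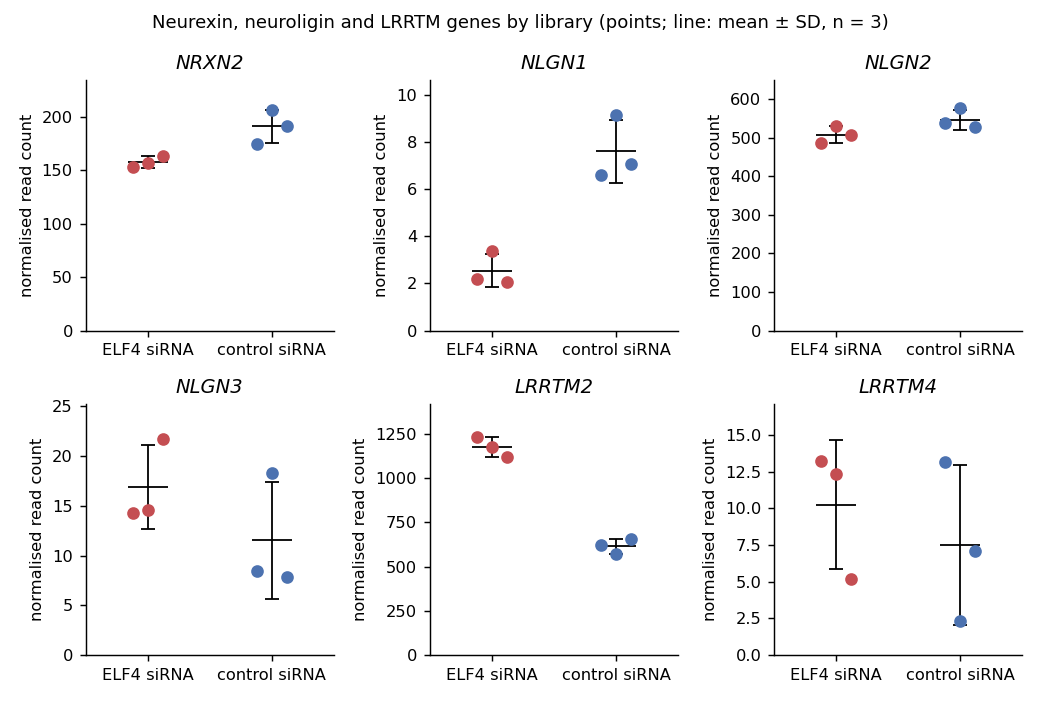
Normalised read count of each gene (linear axes from 0), with 1 point per library, ELF4 siRNA left of control siRNA, and mean ± SD (n = 3). The groups do not overlap for NRXN2, NLGN1 and LRRTM2, and overlap for NLGN2, NLGN3 and LRRTM4.

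Of the 5 members above the limit for testing, 1 rose (LRRTM2), 1 fell (NRXN2) and 3 did not pass. Over all 20339 tested rows, 45.1% were called, with 20.7% that rose and 24.4% that fell, so the number of called members was near the background. Groups stood apart without overlap for 2 of the 5, again near the background of 53.6%. With upper-quartile scaling, which shifted the median of all rows by 0.064 on the log2 scale, 5474 rows rose and 3939 fell in place of 4217 and 4956.

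**Figure D3:**
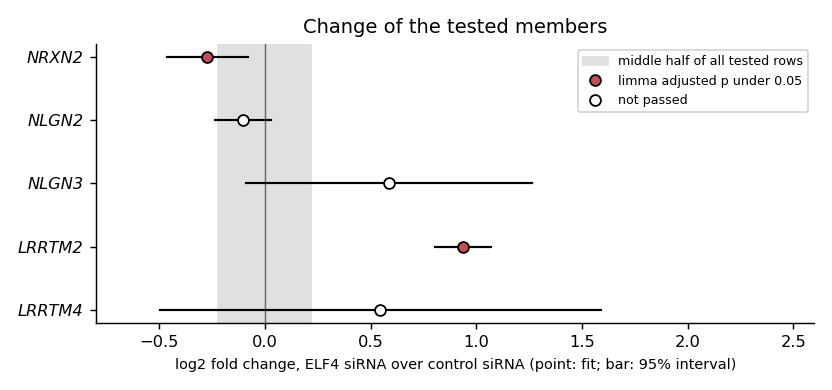
Log2 fold change (ELF4 siRNA against control siRNA) for the 5 tested genes, with the limma 95% interval, filled in red where the adjusted p was under 0.05, and the range of the middle 50% of all tested rows shaded. LRRTM2 at 0.94 lies outside the shaded range with a narrow interval, while the intervals of NLGN3 and LRRTM4 are wide and include 0.

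Differences in response within a family were tested on the log2 ratio of 2 genes in each library, for 5 pairs, with an exact permutation test over libraries that cannot go below p = 0.1. A further pair, NRXN2 with NRXN3, could not be computed. The ratio of NLGN1 to NLGN2 was lower after ELF4 siRNA by a log2 difference of -1.18, with means of -7.18 ± 0.23 after ELF4 siRNA and -6.00 ± 0.16 in control cells (exact p = 0.1, adjusted p = 0.167). That of NLGN1 to NLGN3 differed by -1.87 (exact p = 0.1, adjusted p = 0.167). That of NLGN2 to NLGN3 differed by -0.69 (exact p = 0.3, adjusted p = 0.375) and that of LRRTM2 to LRRTM4 by 0.39 (exact p = 0.4, adjusted p = 0.4), both with overlapping groups. These sizes depend on the count added before the logarithm: with 10 in place of 1, the log2 difference was -0.38 for NLGN1 to NLGN2, -0.83 for NLGN1 to NLGN3, -0.45 for NLGN2 to NLGN3 and 0.70 for LRRTM2 to LRRTM4.

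The last pair set a member beside a paralog outside the 7 symbols and was picked after the values were seen. LRRTM1, which binds neurexins like LRRTM2, rose to 1467 ± 61.5 after ELF4 siRNA, against 1114 ± 27.6 in control cells (log2 fold change 0.40, limma adjusted p = 1.73e-05). The log2 ratio of LRRTM2 to LRRTM1 was -0.32 ± 0.12 after ELF4 siRNA and -0.86 ± 0.08 in control cells (difference 0.54, exact p = 0.1, adjusted p = 0.167), with no overlap between the groups.

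**Figure D4:**
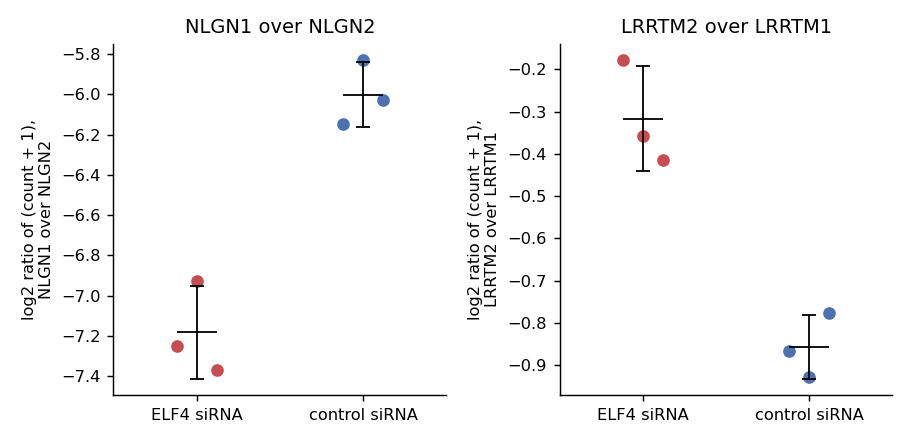
Log2 ratio of NLGN1 to NLGN2 (left) and of LRRTM2 to LRRTM1 (right), with 1 point per library, ELF4 siRNA left of control siRNA, and mean ± SD (n = 3). On the left every ELF4 siRNA library lies below every control library, and on the right every one lies above.

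The partners outside and inside the cell moved in both directions. Of 23 tested genes of the neurexin family and its extracellular partners, among them 5 members, 9 rose, 6 fell and 8 missed the threshold. The median log2 fold change was 0.12 in this list and -0.0042 over all tested rows. Without the members, 8 rose, 5 fell and 5 did not pass. LRRTM1 was among these 8.

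Of 38 tested genes of other synaptic organizers, 13 genes rose, 10 fell and 15 missed the threshold (median 0.07). FLRT3, a leucine-rich repeat protein that binds latrophilins, rose to 1526 ± 61.6 counts after ELF4 siRNA, against 679 ± 32.5 in control cells (log2 fold change 1.17, limma adjusted p = 2.52e-09). CADM1, an immunoglobulin adhesion protein, fell to 7155 ± 201 counts, against 9886 ± 379 in control cells (-0.47), and EFNB2, an ephrin ligand of Eph receptors, fell to 2446 ± 92.7 counts, against 3447 ± 84.8 in control cells (-0.50).

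Of 40 tested intracellular partners, 17 rose, 9 fell and 14 missed the threshold (median 0.09). APBA1, the Mint adaptor that binds CASK, rose to 1028 ± 57.2 counts after ELF4 siRNA, against 485 ± 22.3 in control cells (log2 fold change 1.08, limma adjusted p = 1.13e-08). DLG2, a scaffold of the PSD-95 family, rose to 342 ± 14.5 counts, against 162 ± 8.60 in control cells (1.08), and MPP2, a membrane-associated guanylate kinase, fell to 457 ± 32.0 counts, against 728 ± 27.3 in control cells (-0.67). APBA1 and DLG2 also occur in rows that join several gene names, so their own levels are uncertain. CASK, which binds the neurexin tail, had a log2 fold change of 0.09 (limma adjusted p = 0.145), which passed with upper-quartile scaling (0.15, limma adjusted p = 0.0164), and DLG4, which encodes the neuroligin-binding scaffold PSD-95, fell (-0.51). CASK and DLG4 were picked after their values were seen.

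Of 23 tested regulators of neurexin splicing and shedding, 6 rose, 7 fell and 10 missed the threshold (median -0.016). MMP24, a membrane-bound metalloproteinase, fell to 494 ± 35.8 counts after ELF4 siRNA, against 1179 ± 38.0 in control cells (log2 fold change -1.26, limma adjusted p = 3.46e-09). NOVA2, a neuronal splicing factor, rose (0.64), and APH1A, a gamma-secretase subunit, fell (-0.40). No list was set against the others. In each list the share called was above the 45.1% called over all tested rows. That difference was not tested, and the lists were not matched to all rows by count level.

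**Figure D5:**
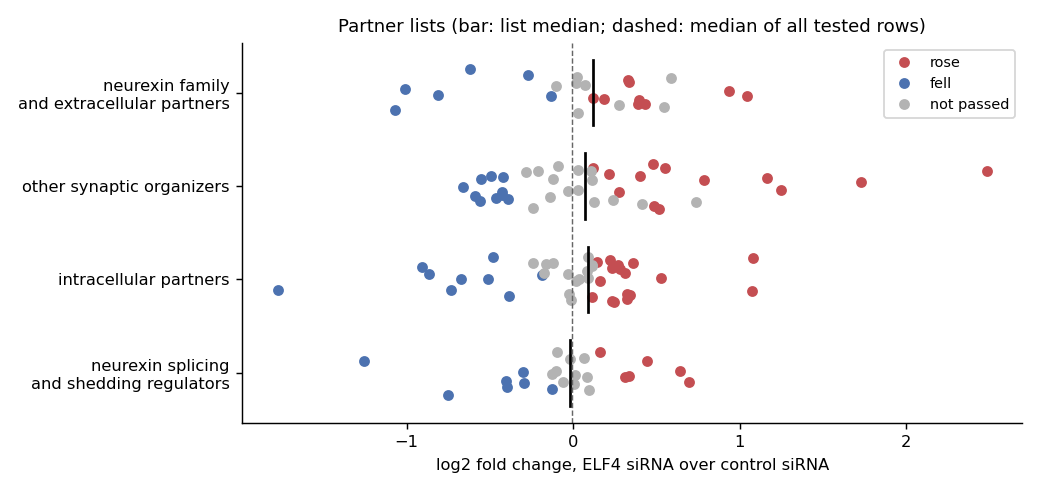
Log2 fold change (ELF4 siRNA against control siRNA) for each tested gene of 4 partner lists, coloured by whether it rose, fell or did not pass in limma, with the list median as a bar and the median of all tested rows dashed. Each list holds genes on both sides of 0, and the 4 medians lie between -0.016 and 0.12.

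The rows most like each called member were ranked by Pearson's r of log2(count + 1) over the 6 libraries, among 13055 rows with a mean of at least 100. For LRRTM2 these were SLC6A17 (r = 0.999, log2 fold change 1.22), HAND2 (r = 0.999, 0.44) and LPIN1 (r = 0.999, 0.26). For NRXN2 these were C2orf76 (r = 0.998, -0.35), a joined row of TMEM242 and snoU13 (r = 0.994, -0.10) and ZNF511 (r = 0.992, -0.33). All r values come from the same 6 libraries in 2 groups, and 45.1% of tested rows differed between those groups, so these names are a description.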

How the data were processed

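PolyA-selected RNA isolated with Trizol was sequenced from 3 ELF4 siRNA and 3 control siRNA libraries. The deposited signal is a normalised read count per gene. TopHat, featureCounts, DESeq2 and hg19 are named in the submitters' processing notes; their versions, the annotation and any strand setting are not given in the sources that were used. All 6 columns gave whole reads once divided by what 1 read is worth. No member occurs in the 2148 rows that join several names. The labels do not say whether libraries stem from separate cultures, and p-values therefore reflect only how much these libraries vary, possibly for technical reasons.

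Deposited values are normalised, so the test was limma with trend on log2(count + 1), which understates changes of low genes, over rows with at least 10 counts in at least 3 libraries, with Benjamini-Hochberg adjustment over 20339 rows and a threshold of 0.05. Other pseudocounts, other filters, TMM and upper-quartile scaling, limma without trend, edgeR and DESeq2 on recovered reads, a replicate block and leaving out each library were tried as alternatives. The members, lists and pairs were chosen with earlier results of these data known. The text names all members, ELF4, the alpha-catenin genes, up to 3 called genes per list with the smallest adjusted p (group mean 100 or more in at least 1 group), and the 3 rows most like each called member. Listed genes without a row of their own were not analysed here, and some genes that this rule selects are not reported here. The limma script was tested on simulated data. Software was DESeq2 1.42.0, edgeR 4.0.16 and limma 3.58.1 in R 4.3.3, and scipy 1.17.1, numpy 2.4.6, matplotlib 3.10.9 and pandas 2.3.3 in Python 3.11.15.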

Additional observations from a re-analysis of the deposited data

How the results depend on the processing

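LRRTM2 rose under every alternative run (log2 fold change 0.88 to 1.00), while NLGN2 and LRRTM4 passed under none. The number of called members, 2, became 1 with upper-quartile scaling and with DESeq2, and 1 to 2 when 1 library was left out, each time because NRXN2 no longer passed; without control replicate 2 the 2 were LRRTM2 and NLGN3. The cause was not tested. Over the left-out libraries, the log2 fold change of LRRTM4 ranged from -0.023 (without control replicate 2) to 1.03, and the LRRTM2 to LRRTM4 difference from -0.087 (without control replicate 1) to 0.90. With no limit for testing 3 members were called, NLGN1 being the third. Dividing by the longest annotated transcript in place of all exons kept the order of the 6 members. It moved the level per kilobase to 26.4 for NRXN2, 0.616 for NLGN1, 114 for NLGN2, 2.46 for LRRTM4 and 321 for LRRTM1. For the genes named with a log2 fold change, ELF4 aside, direction and call were as reported in 411 cases; 10 lost the call (NRXN2 and C2orf76), 2 gained it (NLGN3 and CASK) and 1 reversed (LRRTM4). The number called in each list stayed within 1.5 times. Same-numbered libraries deviated together only weakly (correlations 0.029, 0.075 and 0.041), but each best with its own number. Whether the numbers mark pairs cannot be told from these values, and the main test did not pair them. With a replicate block 2 members were called, NRXN2 among them (limma adjusted p = 0.0182). The block changed no call of a member. Depth limits NLGN1, NLGN3 and LRRTM4, with 7 to 47 reads per group.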
